A study of Homo sapiens with 9 samples.

Results

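Ribosome biogenesis genes encode the RNA polymerase I machinery, the snoRNP proteins, the nucleolar proteins and the factors that assemble ribosomal subunits. The 37 members described here were a given list of such genes. All 37 were found by symbol among the 60230 genes of the expression tables, and all 37 passed the filter on low counts. They were followed by poly(A) RNA sequencing in the human lung cancer line NCI-H358 and in its resistant derivative H358-R. H358-R had been selected by growth in 250 nM sotorasib, a targeted cancer drug, over about 2 months. The 3 states were H358-R on drug (profiled on day 4 after 250 nM sotorasib), H358-R off drug (no sotorasib) and untreated, drug-sensitive parental cells, each with 3 libraries. All were grown in RPMI medium with 10% serum. H358-R is 1 derivative line, so resistance and any other difference between the 2 lines cannot be told apart. The labels do not give the time that off-drug cells spent without the drug. The libraries are labelled biological replicates, with no mention of separate cultures, and p-values therefore measure only the spread between libraries, part of which may be technical.

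Ribosomes are built in the nucleolus. RNA polymerase I copies the ribosomal DNA into a long precursor, which snoRNPs (small nucleolar RNAs with bound proteins) modify, and which nucleases, helicases and assembly factors cut and fold into the small and the large subunit. Cells that grow and divide make many ribosomes, and MYC is a known transcriptional activator of this gene set. Only messenger RNA of the proteins was measured here, not ribosomal RNA or ribosomes.

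The core E-box CACGTG, which reads the same on both strands and is bound by MYC with MAX and by other factors of the same class, was searched in RefSeq promoter windows (GRCh38.p14, 250 bases before to 50 bases after the annotated start). Of the 37 members, 31 were matched to a window, and 14 of the 31 (45.2%) held the motif. By gene, it was in 8.77% of all genes with a window and in 12% of tested genes with a window. It was in 26.5% of the other ribosome biogenesis genes with a window. By window, it was present in 35.9% of the 39 windows of members and in 7.26% of all 35116 windows. Below are 2 promoters with the motif, those of the small-subunit factor UTP4 and of the RNA helicase DDX21, each of which had the largest called change among members with the motif in 1 or more of the 3 comparisons. With them are the promoters of NOP56 and NOB1, chosen after their values were seen, whose windows held no such letters. NOP56 had the largest rise on drug against off drug, and NOB1 the largest fall on drug against parental cells. Each stretch runs 5′ to 3′ from 150 bases before the start, over 180 bases, and capitals mark the motif. UTP4 lies at chr16:69132499-69132678 (plus strand), DDX21 at chr10:68956497-68956676 (plus), NOP56 at chr20:2652482-2652661 (plus) and NOB1 at chr16:69754897-69755076 (minus).
UTP4: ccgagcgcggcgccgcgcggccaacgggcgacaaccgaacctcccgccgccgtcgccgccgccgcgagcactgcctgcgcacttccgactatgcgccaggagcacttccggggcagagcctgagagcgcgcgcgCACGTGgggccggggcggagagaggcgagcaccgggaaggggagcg
DDX21: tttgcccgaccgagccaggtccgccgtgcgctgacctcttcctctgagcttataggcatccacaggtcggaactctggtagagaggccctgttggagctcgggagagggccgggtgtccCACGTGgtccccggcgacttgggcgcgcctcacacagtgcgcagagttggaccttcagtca
NOP56: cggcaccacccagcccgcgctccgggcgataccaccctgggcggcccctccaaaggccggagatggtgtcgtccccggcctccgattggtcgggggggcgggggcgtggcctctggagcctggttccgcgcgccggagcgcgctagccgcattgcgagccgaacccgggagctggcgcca
NOB1: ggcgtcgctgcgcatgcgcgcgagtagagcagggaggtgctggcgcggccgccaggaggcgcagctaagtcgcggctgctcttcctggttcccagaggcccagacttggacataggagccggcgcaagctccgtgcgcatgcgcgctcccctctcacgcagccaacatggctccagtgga

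**Figure D1:**
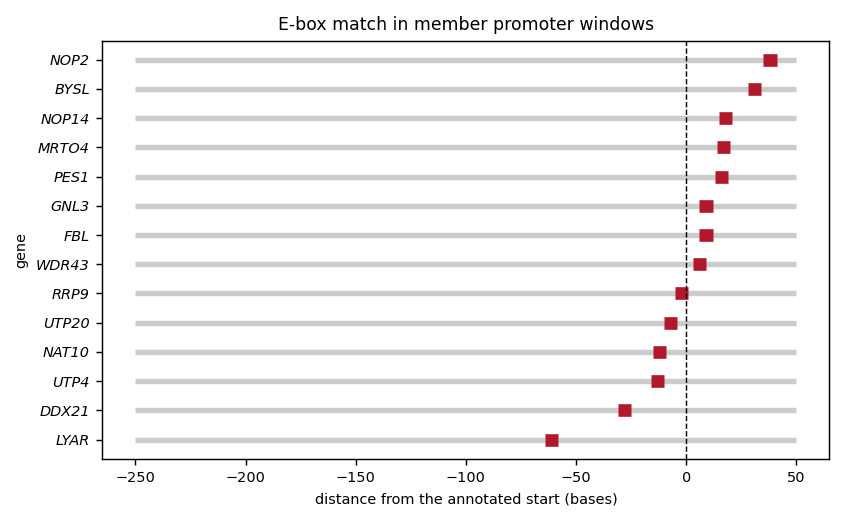
Position of the CACGTG match (red) in the promoter windows of the 14 members that held it, with the distance from the annotated start in bases on the x axis and the searched window in grey. All 14 matches begin between 64 bases before the start and 35 bases after it.

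All 14 matches in members began no more than 75 bases before the start (a limit chosen after the positions were seen), whereas 49.9% of the 1768 matches in windows of tested genes did so. By role, the motif was in 0 of 5 members of the RNA polymerase I group and in 5 of 7 small-subunit members with a window. Members with the motif had a median change of 0.42 between off-drug and parental cells, and the 17 members without it had 0.31 (log2). Between on-drug and off-drug cells the medians were −0.27 with the motif and −0.07 without it, and between on-drug and parental cells 0.15 with it and 0.40 without it. The members without a window, RRS1, NOP58, BOP1, RRP1B, RRP12 and NOLC1, are in none of these medians. They include the members' largest changes against parental cells, that of RRP12 off drug (1.30) and that of RRS1 on drug (1.83). A match describes the letters of a window and is not a measured binding site.

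Library totals were 33.39 to 34.73 in units of 1e6 estimated counts on drug, 25.73 to 33.99 off drug and 25.7 to 31.79 in parental cells. Members were read deeply, from 336 counts in a library (UTP20) to 52565 (NPM1). The on-drug libraries differed in TMM scaling factor, which corrects for makeup, with factors of 1.113 to 1.124 on drug, against 0.9171 to 0.9717 in the other libraries. Epithelial markers were abundant in every library, with a summed level of 2031 to 2740 TPM on drug, 3471 to 3956 TPM off drug and 3423 to 4084 TPM in parental cells. EPCAM, KRT8, KRT18 and KRT19 averaged less on drug than off drug, while CDH1 averaged more (95.4 TPM on drug and 59.5 TPM off drug). The 5 alveolar markers summed to 57.6 to 72.6 TPM on drug, 14.3 to 15.5 TPM off drug and 22.6 to 25.5 TPM in parental cells, and the part of this difference in the results was not tested. Of them, SFTPB was at 0 in all 9 libraries, while NKX2-1 averaged 63.3 TPM on drug, 11.5 TPM off drug and 22.0 TPM in parental cells. Most of the on-drug sum was therefore NKX2-1. NAPSA averaged 2.88 TPM on drug, 0.787 TPM off drug and 0.862 TPM in parental cells, and SFTPC 0.0376 TPM on drug. AGER went the other way, with 1.256 TPM on drug, 2.625 TPM off drug and 1.599 TPM in parental cells. The summed level of 6 fibroblast markers was 77.6 to 98.5 TPM on drug, 5.56 to 7.17 TPM off drug and 7.99 to 10.3 TPM in parental cells. Most of the on-drug sum was LUM (69.5 TPM on average), while DCN averaged 0.299 TPM there, and the part of these genes in the results on drug was not tested. The summed level of 10 proliferation genes was 1191 to 1271 TPM on drug, 748 to 775 TPM off drug and 429 to 461 TPM in parental cells. PCNA was the largest of them on drug (385 TPM on average, and 107 TPM off drug). At the threshold given below, 5 of the 10 rose on drug against off drug (31.4% of all genes tested). TOP2A and BUB1 fell (31.2% of all genes tested), and 3 were not called. The part of these genes in the members' changes was not tested either. In bulk RNA, fewer cells of a type and less RNA per cell cannot be told apart.

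Members' levels are compared between genes in TPM, which is per length. NPM1 led with a mean of 1418 TPM over the 9 libraries, followed by NCL with 245 TPM, FBL with 226 TPM and GNL3 with 134 TPM, and UTP20 was lowest with 3.58 TPM. Summed over the 37 members, the level was 3724 to 3951 TPM on drug, 3504 to 3606 TPM off drug and 2739 to 2795 TPM in parental cells. Without NPM1 the sums were 2167 to 2502 TPM on drug, 1939 to 2119 TPM off drug and 1475 to 1513 TPM in parental cells. Neither sum overlapped between the 3 states. TPM carries no TMM factor, and the sums were not compared after TMM scaling. With TMM scaling the members' median log2 change on drug against off drug was −0.16, so the order of these sums depends on scaling. Below, levels between states are TMM-scaled counts per 1e6 counts (CPM), given as mean ± SD (n = 3 libraries a state). Each change is a log2 fold change ± SE. Calls are at 0.05 for p-values of edgeR's quasi-likelihood test, adjusted after Benjamini and Hochberg across the 17307 genes that passed the filter. The 3 comparisons share libraries with one another, so their values stand side by side and are not independent.

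Between off-drug H358-R and parental cells, most ribosome biogenesis genes were higher in the resistant cells. Of the 37 members, 25 rose (67.6%), against 28.4% of all genes tested, and 1 fell, NOB1 (2.7%), against 26.6% of all genes tested. The other 11 were not called. The members' median change was 0.44, and that of all genes was 0.0007. Of the 25 rises, 22 were kept under 5 other scalings of the data, and those of FBL, LYAR and LAS1L were lost under 1 or more of them. The 5 were RLE factors, upper-quartile factors, library size only, and limma on log2(TPM + 1) and on log2(TPM + 0.1).

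Between on-drug and off-drug H358-R the members divided. Of the 37, 9 rose (24.3%), against 31.4% of all genes tested, 17 fell (45.9%), against 31.2% of all genes tested, and 11 were not called. The median change was −0.16 for the members and 0.02 for all genes. This split depends on scaling. With library size as the only scaling, 15 members were higher and 8 lower, with upper-quartile factors 13 and 10, and on log2(TPM + 1) 12 and 7. The shares of all genes given above are for TMM scaling only, so these counts cannot be set against them. Those settings moved the median of all genes to 0.27, 0.15 and 0.16, and the members' median lay below it by 0.18, 0.18 and 0.08. All 9 rises (UBTF, NOP56, NOP58, NCL, UTP4, UTP20, BOP1, RRS1 and MRTO4) were kept under all 5 other scalings. Each of the 5 moved the median of all genes upward, from 0.0160 to between 0.0213 and 0.2724. Keeping a rise was therefore a weak check, and keeping a fall a harder one, so the 2 outcomes cannot be compared. Of the 17 falls, 5 were kept under all 5, those of POLR1B, RRN3, DDX21, GNL3 and NOB1.

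Between on-drug H358-R and parental cells, 24 members rose (64.9%), against 33.4% of all genes tested, and 4 fell (10.8%), against 32.9% of all genes tested. The 4 falls were in NOB1, GNL3, WDR12 and NPM3, and 9 members were not called. The median change was 0.42 for the members and 0.02 for all genes. Of the 24 rises, 23 were kept under the 5 other scalings and that of POLR1A was not. Library size only and both TPM scales raised the members' median here, so keeping a rise under them was a weak check. Of the 4 falls, NOB1 and GNL3 were kept.

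**Figure D2:**
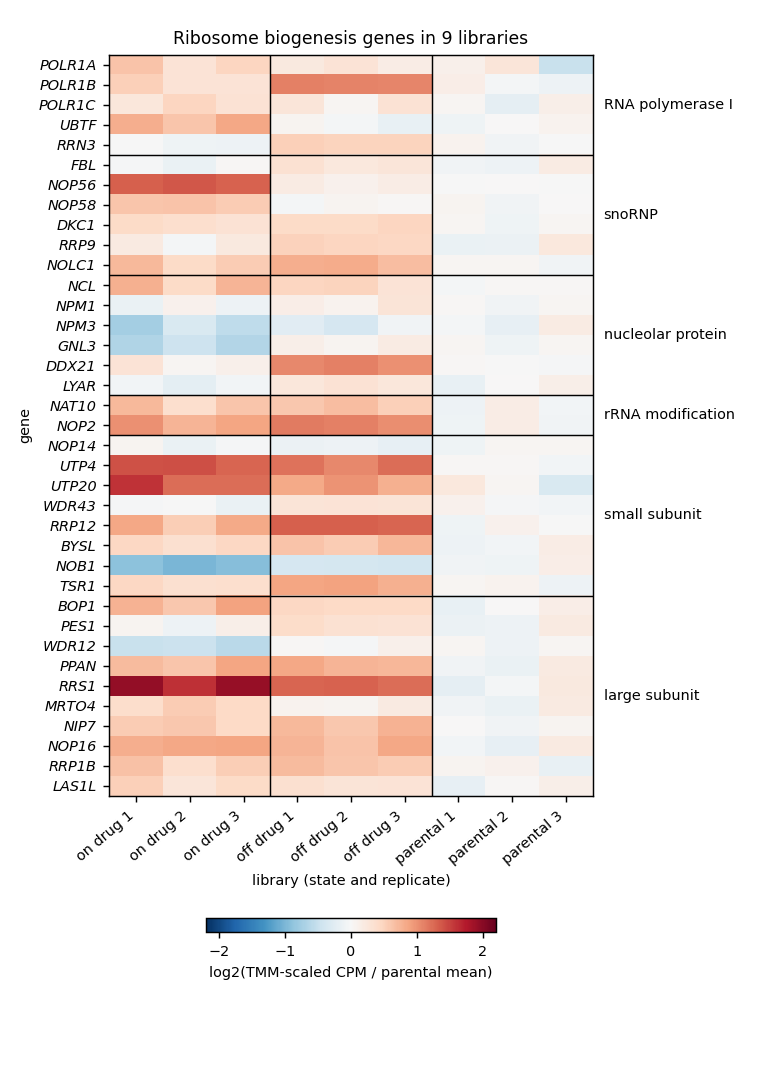
Level of each of the 37 members (rows, by role) in each library (columns: on drug, off drug and parental, replicates 1 to 3), as log2 of TMM-scaled CPM over the mean of the parental libraries, from blue (lower) to red (higher). Most rows are red off drug, RRS1, NOP56, UTP4 and UTP20 are deepest red on drug, and NOB1 is blue in all 6 H358-R libraries.

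**Figure D3:**
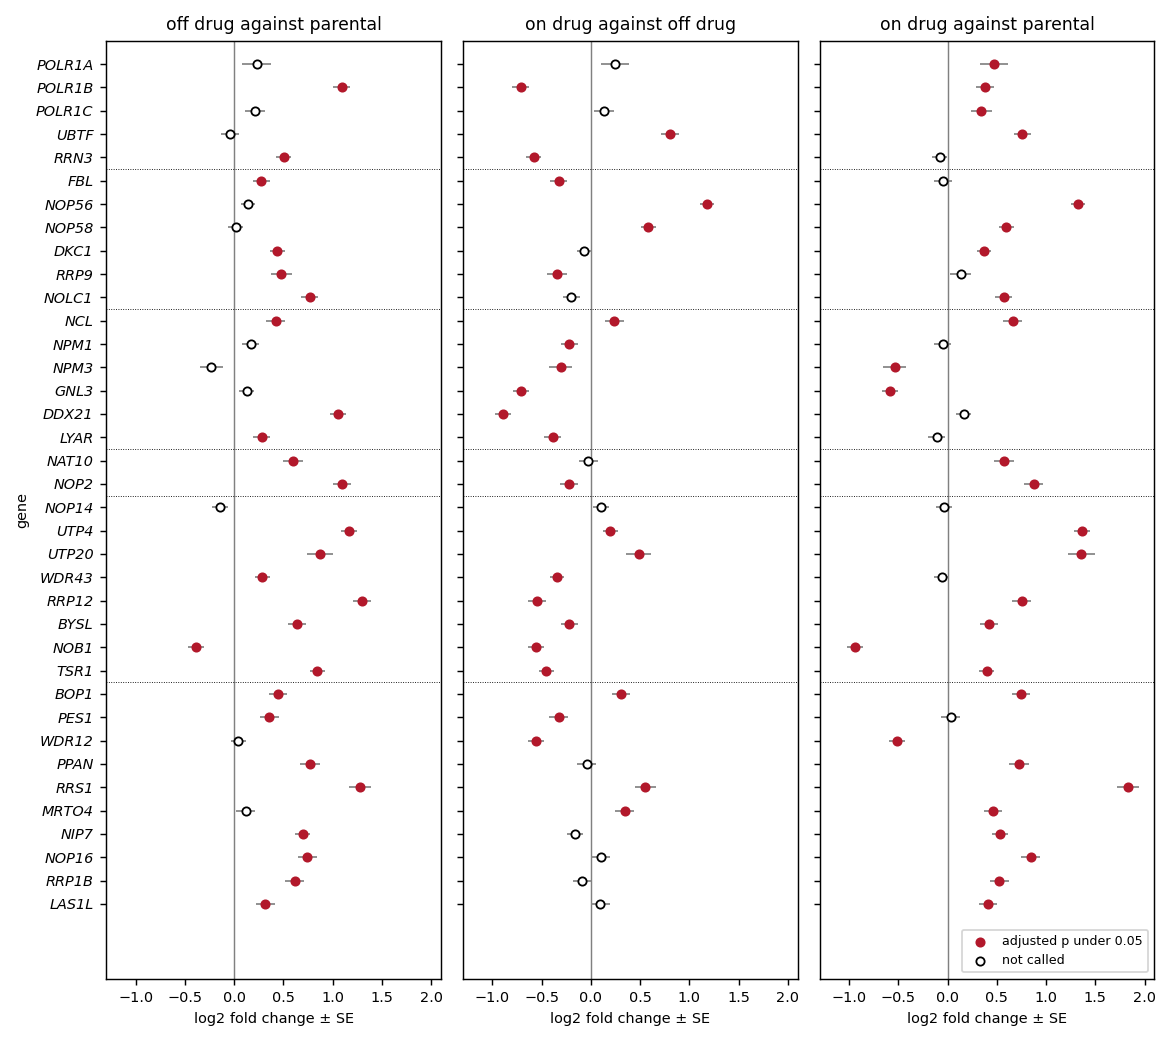
Log2 fold change ± SE of each member in the 3 comparisons, with filled points for members called at an adjusted p under 0.05 and open points for the rest. In the first panel 25 filled points lie right of 0 and 1 lies left, in the second 9 lie right and 17 left, and in the third 24 lie right and 4 left.

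**Figure D4:**
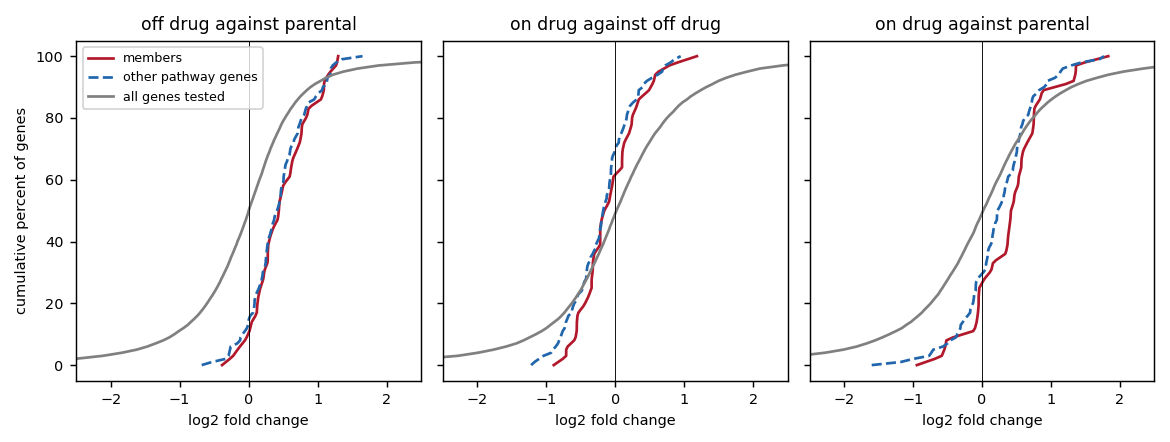
Cumulative percent of genes (y axis) by log2 fold change (x axis) for the 37 members, the 131 other ribosome biogenesis genes and all 17307 genes tested, in the 3 comparisons. The curve of the members lies right of all genes in the off-drug to parental panel (median 0.44) and in the on-drug to parental panel (median 0.42), and crosses it in the on-drug to off-drug panel (median −0.16).

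RNA polymerase I and its factors did not move as a block. POLR1B, the second-largest subunit of the polymerase, had 79.4, 68.3 and 68.2 CPM in the on-drug libraries, 120, 118 and 116 CPM in the off-drug libraries and 61.2, 53.8 and 51.0 CPM in the parental libraries. The 3 states did not overlap, and the off-drug libraries were highest. POLR1B rose off drug against parental cells (1.09 ± 0.09, edgeR's adjusted p = 5.62e-08), fell on drug against off drug (−0.71 ± 0.09, adjusted p = 3.48e-06) and was still above parental cells on drug (0.38 ± 0.09, adjusted p = 0.00143). RRN3, which recruits the polymerase to the promoter, averaged 55.6 ± 2.11 CPM on drug, 83.2 ± 1.26 CPM off drug and 58.7 ± 3.32 CPM in parental cells. It too was highest off drug, by 0.50 ± 0.08 against parental cells (edgeR's adjusted p = 3.93e-05), and the on-drug and parental libraries overlapped. RRN3 pseudogene copies held 5.33 to 9.67% as many counts as RRN3, so reads shared with them make its level less certain.

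UBTF, the upstream binding factor that opens ribosomal DNA for transcription, showed another order. It had 92.7, 81.2 and 96.6 CPM in the on-drug libraries, 55.6, 51.8 and 47.8 CPM in the off-drug libraries and 49.7, 53.8 and 56.3 CPM in the parental libraries. The on-drug libraries were high, and the off-drug and parental libraries overlapped. The change on drug against off drug was 0.80 ± 0.09 (edgeR's adjusted p = 1.21e-06), and that off drug against parental cells, −0.04 ± 0.09, was not called (adjusted p = 0.724). POLR1C, a subunit shared with RNA polymerase III and the most abundant of these 5 genes (51.3 TPM), had 41.4, 48.4 and 43.6 CPM on drug, 42.0, 36.0 and 43.6 CPM off drug and 36.1, 30.5 and 38.4 CPM in parental cells. It was called on drug against parental cells (0.34 ± 0.10, adjusted p = 0.00766), and that call was lost without parental replicate 2 (0.25, adjusted p = 0.0519). POLR1A, the largest subunit, was called in the same comparison (0.47 ± 0.14, edgeR's adjusted p = 0.00854), with parental libraries spread from 27.8 to 47.2 CPM.

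The snoRNP proteins held the largest change on drug against off drug. NOP56 (chromosome 20, 2652145 to 2658393 in GENCODE 29), a core protein of the C/D snoRNPs that methylate ribosomal RNA, had 223, 233 and 222 CPM in the on-drug libraries, 102, 96.1 and 101 CPM in the off-drug libraries and 90.2, 90.6 and 89.9 CPM in the parental libraries. The on-drug libraries lay far above all others, and replicates were close together. NOP56 rose on drug against off drug by 1.18 ± 0.07 (edgeR's adjusted p = 6.79e-10), while off drug against parental cells it changed by 0.14 ± 0.07 and was not called (adjusted p = 0.103). NOP58, its partner in the same particle, averaged 135 ± 3.58 CPM on drug, 90.3 ± 3.24 CPM off drug and 89.4 ± 4.23 CPM in parental cells. It rose on drug against off drug (0.58 ± 0.07, edgeR's adjusted p = 4.45e-06) and was not called off drug against parental cells (0.01 ± 0.07, adjusted p = 0.892).

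FBL, fibrillarin, the methyltransferase of that particle, did not follow NOP56 and NOP58. It had 183, 167 and 188 CPM on drug, 232, 218 and 223 CPM off drug and 175, 170 and 210 CPM in parental cells, so the off-drug libraries were highest and the on-drug and parental libraries overlapped. FBL rose off drug against parental cells (0.28 ± 0.09, edgeR's adjusted p = 0.0144) and fell on drug against off drug (−0.33 ± 0.09, adjusted p = 0.00447). The rise was lost without parental replicate 1, parental replicate 2 or off-drug replicate 1 (0.24, 0.22 and 0.25, adjusted p = 0.0681, 0.078 and 0.0625), and the fall was not called with library size as the only scaling (−0.07, adjusted p = 0.478).

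Of the remaining snoRNP genes, NOLC1, a chaperone of snoRNPs, had 144, 118 and 128 CPM on drug, 152, 155 and 140 CPM off drug and 90.2, 89.9 and 82.8 CPM in parental cells. Both H358-R states lay above the parental libraries and overlapped each other. NOLC1 rose by 0.77 ± 0.09 off drug against parental cells (edgeR's adjusted p = 2.05e-06). DKC1, the pseudouridine synthase of the H/ACA snoRNPs, averaged 180 ± 5.70 CPM on drug, 189 ± 3.53 CPM off drug and 139 ± 7.44 CPM in parental cells, a rise of 0.44 ± 0.07 off drug against parental cells (edgeR's adjusted p = 1.05e-04). RRP9, a protein of the U3 snoRNP, rose off drug (0.48 ± 0.11) and fell on drug against off drug (−0.34 ± 0.11, edgeR's adjusted p = 0.00997), a fall that was lost without on-drug replicate 2 (−0.26, adjusted p = 0.0561).

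Of the 6 nucleolar proteins, 5 fell and NCL rose on drug against off drug (31.2% and 31.4% of all genes tested). Of those 5 falls, DDX21 and GNL3 were kept under all 5 other scalings, and those of NPM1, NPM3 and LYAR were not. DDX21 (chromosome 10, 68956128 to 68985073), an RNA helicase that acts in ribosomal RNA transcription and processing, had 232, 195 and 204 CPM on drug, 390, 405 and 375 CPM off drug and 190, 188 and 185 CPM in parental cells. The off-drug libraries were high and the other states lay close together without overlap. DDX21 rose by 1.06 ± 0.08 off drug against parental cells (edgeR's adjusted p = 2.52e-08) and fell by 0.89 ± 0.08 on drug against off drug (adjusted p = 8.49e-08). Against parental cells the on-drug change of 0.16 ± 0.08 was not called (adjusted p = 0.0847).

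GNL3, nucleostemin, a GTP-binding nucleolar protein abundant in proliferating and stem cells, was lowest on drug. It had 126, 144 and 127 CPM on drug, 218, 208 and 225 CPM off drug and 206, 187 and 204 CPM in parental cells. The on-drug libraries stood below all others, and the off-drug libraries all lay above the parental ones by a small margin. It fell on drug against off drug (−0.71 ± 0.08, edgeR's adjusted p = 1.27e-06) and on drug against parental cells (−0.59 ± 0.08, adjusted p = 9.01e-06). Off drug against parental cells it changed by 0.13 ± 0.08 and was not called (adjusted p = 0.2).

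NPM1, nucleophosmin, the most abundant member, had 1203, 1415 and 1234 CPM on drug, 1465, 1400 and 1620 CPM off drug and 1348, 1265 and 1372 CPM in parental cells, and the on-drug range overlapped both of the other states. It was called lower on drug against off drug (−0.22 ± 0.09, edgeR's adjusted p = 0.038). It was no longer called without off-drug replicate 1, off-drug replicate 3, on-drug replicate 1 or on-drug replicate 3 (−0.24, −0.16, −0.17 and −0.19, adjusted p = 0.0706 to 0.17), and the sign turned with library size as the only scaling (0.04). The 49 NPM1 pseudogenes together held 0.123 to 0.219% as many counts as NPM1. NPM3, a histone chaperone related to NPM1, had 42.1, 56.6 and 48.3 CPM on drug, 59.8, 54.7 and 67.0 CPM off drug and 69.3, 63.1 and 80.8 CPM in parental cells. It fell on drug against parental cells (−0.54 ± 0.12, edgeR's adjusted p = 7.32e-04), a call that was not kept on log2(TPM + 1) (−0.14, adjusted p = 0.246). Its fall on drug against off drug (−0.31 ± 0.12, adjusted p = 0.032) was lost without off-drug replicate 1 or 3 or without on-drug replicate 1 or 3 (−0.32, −0.23, −0.21 and −0.29, adjusted p = 0.0636 to 0.156).

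NCL, nucleolin, which binds the ribosomal RNA precursor, moved the other way. It had 873, 682 and 854 CPM on drug, 705, 717 and 623 CPM off drug and 491, 516 and 518 CPM in parental cells. All H358-R libraries lay above the parental ones, and on-drug replicate 2 fell within the off-drug range. NCL rose on drug against parental cells by 0.66 ± 0.10 (edgeR's adjusted p = 1.70e-05) and off drug against parental cells by 0.42 ± 0.10 (adjusted p = 0.00144). On drug against off drug it was called at 0.24 ± 0.10 (adjusted p = 0.0419). That call was lost when any 1 library other than parental replicate 3 or on-drug replicate 2 was left out (0.17 to 0.27, adjusted p = 0.0506 to 0.18). LYAR, a nucleolar zinc-finger protein, averaged 55.7 ± 3.31 CPM on drug, 73.0 ± 1.87 CPM off drug and 60.2 ± 6.28 CPM in parental cells, and it fell on drug against off drug (−0.39 ± 0.09, edgeR's adjusted p = 0.00107), which was not called with library size as the only scaling (−0.13, adjusted p = 0.187). Its rise off drug against parental cells (0.28 ± 0.09, adjusted p = 0.0135) was lost without parental replicate 1 (0.20, adjusted p = 0.0864) or off-drug replicate 2 (0.25, adjusted p = 0.0643).

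NOP2 and NAT10, grouped here as modifying enzymes that act outside the snoRNP core, were both higher in H358-R than in parental cells. NOP2, a cytosine methyltransferase, had 46.3, 38.8 and 42.5 CPM on drug, 51.5, 49.8 and 47.3 CPM off drug and 21.7, 25.9 and 22.0 CPM in parental cells. The parental libraries were low, and the on-drug libraries all lay below the off-drug ones. NOP2 rose by 1.09 ± 0.10 off drug against parental cells (edgeR's adjusted p = 1.09e-07) and by 0.88 ± 0.09 on drug against parental cells (adjusted p = 6.54e-07). Its call on drug against off drug (−0.22 ± 0.09, adjusted p = 0.0488) was lost without parental replicate 1, any 1 off-drug library or on-drug replicate 2 or 3 (−0.25 to −0.15, adjusted p = 0.0525 to 0.189). NAT10, the cytidine acetyltransferase, averaged 50.2 ± 5.88 CPM on drug, 51.1 ± 2.83 CPM off drug and 33.8 ± 3.53 CPM in parental cells. It rose by 0.60 ± 0.10 off drug against parental cells (edgeR's adjusted p = 1.22e-04).

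Among the small-subunit factors, 6 of 8 rose and 1 fell off drug against parental cells (28.4% and 26.6% of all genes tested). RRP12, which takes part in processing and export of the pre-40S particle, had 48.6, 39.0 and 47.8 CPM on drug, 66.6, 66.4 and 64.7 CPM off drug and 25.3, 28.7 and 26.5 CPM in parental cells. The states did not overlap, with the off-drug libraries highest. RRP12 rose by 1.30 ± 0.09 off drug against parental cells (edgeR's adjusted p = 1.51e-08), the largest change of any member there. It fell by 0.55 ± 0.09 on drug against off drug (adjusted p = 7.95e-05), which on log2(TPM + 0.1) was not called (adjusted p = 0.056).

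UTP4, a protein of the U3-containing processome, had 107, 109 and 98.3 CPM on drug, 93.4, 84.8 and 95.5 CPM off drug and 41.6, 41.6 and 38.8 CPM in parental cells. Both H358-R states were more than 2-fold above the parental libraries, with rises of 1.36 ± 0.08 on drug (edgeR's adjusted p = 5.85e-10) and 1.17 ± 0.08 off drug (adjusted p = 1.00e-08). The call on drug against off drug at 0.20 ± 0.08 (adjusted p = 0.0388) was lost without replicate 1 or 2 of any of the 3 states (0.15 to 0.21, adjusted p = 0.0519 to 0.182). UTP20, a scaffold of the same processome, had 47.6, 36.7 and 37 CPM on drug, 28.1, 31.4 and 27.2 CPM off drug and 18.6, 16.2 and 12.5 CPM in parental cells. Its libraries were ordered by state without overlap. UTP20 rose by 1.36 ± 0.13 on drug against parental cells (edgeR's adjusted p = 2.24e-07) and by 0.49 ± 0.13 on drug against off drug (adjusted p = 0.00392).

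NOB1, the endonuclease that makes the last cut of the small-subunit RNA, ran against most of the others in both comparisons with parental cells. On drug against off drug, 5 of the 8 small-subunit factors fell, NOB1 among them, and 2 rose (31.2% and 31.4% of all genes tested). NOB1 had 79.6, 74.1 and 77.2 CPM on drug, 115, 113 and 112 CPM off drug and 141, 139 and 165 CPM in parental cells. The libraries were ordered by state without overlap, and the on-drug libraries were lowest. NOB1 fell by 0.94 ± 0.08 on drug against parental cells (edgeR's adjusted p = 4.57e-08) and by 0.56 ± 0.08 on drug against off drug (adjusted p = 1.93e-05). Off drug against parental cells the change was −0.39 ± 0.08 (adjusted p = 7.94e-04), and on log2(TPM + 1) it was −0.25 and not called (adjusted p = 0.0627).

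NOB1 has 2 members as neighbours on the long arm of chromosome 16. In GENCODE 29 (GRCh38), UTP4 spans bases 69131291 to 69231130, NIP7 starts 106.9 kb further on, and NOB1 (69741867 to 69754940) starts 398.8 kb beyond NIP7. UTP4 and NIP7 rose in both comparisons with parental cells, and NOB1 fell in both. The other pairs of members within 1000 kb were NPM3 and NOLC1 on chromosome 10, NOP58 and WDR12 on chromosome 2, and RRP9 and GNL3 on chromosome 3. On drug against parental cells, NPM3 fell and NOLC1 rose, and WDR12 fell and NOP58 rose.

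The 4 remaining small-subunit genes were TSR1, BYSL, WDR43 and NOP14. TSR1, a GTPase-like factor of late pre-40S particles, averaged 115 ± 4.85 CPM on drug, 158 ± 5.56 CPM off drug and 87.7 ± 5.99 CPM in parental cells, and rose by 0.85 ± 0.08 off drug against parental cells (edgeR's adjusted p = 2.15e-07). BYSL, bystin, averaged 47.8 ± 1.99 CPM on drug, 55.6 ± 3.42 CPM off drug and 35.8 ± 3.62 CPM in parental cells, a rise of 0.64 ± 0.09 off drug. Its call on drug against off drug (−0.22 ± 0.09, edgeR's adjusted p = 0.0397) was lost without off-drug replicate 1 or 3 or without any 1 on-drug library (−0.24 to −0.17, adjusted p = 0.0563 to 0.161), and the sign turned with library size as the only scaling and in TPM. WDR43, a processome protein, was highest off drug, at 120 ± 1.18 CPM, against 98.8 ± 5.41 CPM in parental cells. NOP14 was called in none of the 3 comparisons, with 65.2 ± 4.72 CPM on drug, 60.7 ± 1.30 CPM off drug and 67.0 ± 3.37 CPM in parental cells. On log2(TPM + 1) it was called on drug against parental cells (0.29, adjusted p = 0.0371).

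Of the 10 large-subunit factors, 8 rose in each comparison with parental cells (28.4% of all genes tested off drug and 33.4% on drug). On drug against parental cells 1 fell, WDR12 (32.9% of all genes tested). RRS1, a factor for recruiting the 5S RNP into the particle, had 99.1, 79.4 and 98.7 CPM on drug, 63.3, 64.1 and 61.3 CPM off drug and 22.6, 25.3 and 30.1 CPM in parental cells. The libraries were ordered by state without overlap. RRS1 rose by 1.83 ± 0.11 on drug against parental cells (edgeR's adjusted p = 6.57e-10), the largest change of any member in any comparison and a 3.56-fold difference. It also rose by 1.28 ± 0.11 off drug against parental cells (adjusted p = 9.97e-08) and by 0.55 ± 0.11 on drug against off drug (adjusted p = 2.67e-04).

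PES1, BOP1 and WDR12 encode the 3 proteins of the PeBoW complex, which matures the large-subunit RNA, and their transcripts differed. BOP1 averaged 145 ± 14.3 CPM on drug, 118 ± 1.06 CPM off drug and 86.3 ± 9.25 CPM in parental cells, and its libraries were ordered by state without overlap. PES1 had 104, 92.8 and 108 CPM on drug, 132, 126 and 125 CPM off drug and 91.7, 92.5 and 115 CPM in parental cells, highest off drug. WDR12 had 58.8, 59.2 and 54.5 CPM on drug, 83.9, 81.0 and 89.0 CPM off drug and 85.0, 76.4 and 84.8 CPM in parental cells, lowest on drug.

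BOP1 rose on drug against off drug by 0.30 ± 0.09 (edgeR's adjusted p = 0.00962), a call lost without on-drug replicate 3 (0.24, adjusted p = 0.0582). In the same comparison PES1 fell by 0.33 ± 0.09 (edgeR's adjusted p = 0.00689), which was not kept with library size as the only scaling (−0.07, adjusted p = 0.506). WDR12 fell by 0.56 ± 0.08 (edgeR's adjusted p = 1.56e-05), which on log2(TPM + 0.1) was not called (adjusted p = 0.0564). On drug against parental cells WDR12 fell by 0.51 ± 0.08 (adjusted p = 3.12e-05) and BOP1 rose by 0.75 ± 0.09 (adjusted p = 2.97e-06), while PES1, at 0.03 ± 0.09, was not called (adjusted p = 0.798).

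NIP7, a small RNA-binding factor and the most abundant of the large-subunit members (86.5 TPM), had 135, 139 and 125 CPM on drug, 151, 139 and 156 CPM off drug and 92.6, 87.6 and 95.4 CPM in parental cells. All H358-R libraries lay above the parental ones, and the 2 H358-R states overlapped. NIP7 rose by 0.69 ± 0.08 off drug against parental cells (edgeR's adjusted p = 2.02e-06). NOP16 and PPAN, further factors of the pre-60S particle, rose off drug against parental cells by 0.74 ± 0.10 and 0.77 ± 0.10, and RRP1B by 0.62 ± 0.09. A readthrough transcript of PPAN with its neighbour P2RY11 held 6.76 to 16% as many counts as PPAN, so reads shared between them make its level less certain. MRTO4, related to the ribosomal stalk protein P0, averaged 119 ± 7.34 CPM on drug, 93.9 ± 5.03 CPM off drug and 86.6 ± 11.4 CPM in parental cells, a rise of 0.34 ± 0.09 on drug against off drug (edgeR's adjusted p = 0.00488). LAS1L, which takes part in cutting the internal spacer of the precursor, rose off drug against parental cells (0.31 ± 0.10, edgeR's adjusted p = 0.0112), a call lost without parental replicate 1 (0.23, adjusted p = 0.0723).

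**Figure D5:**
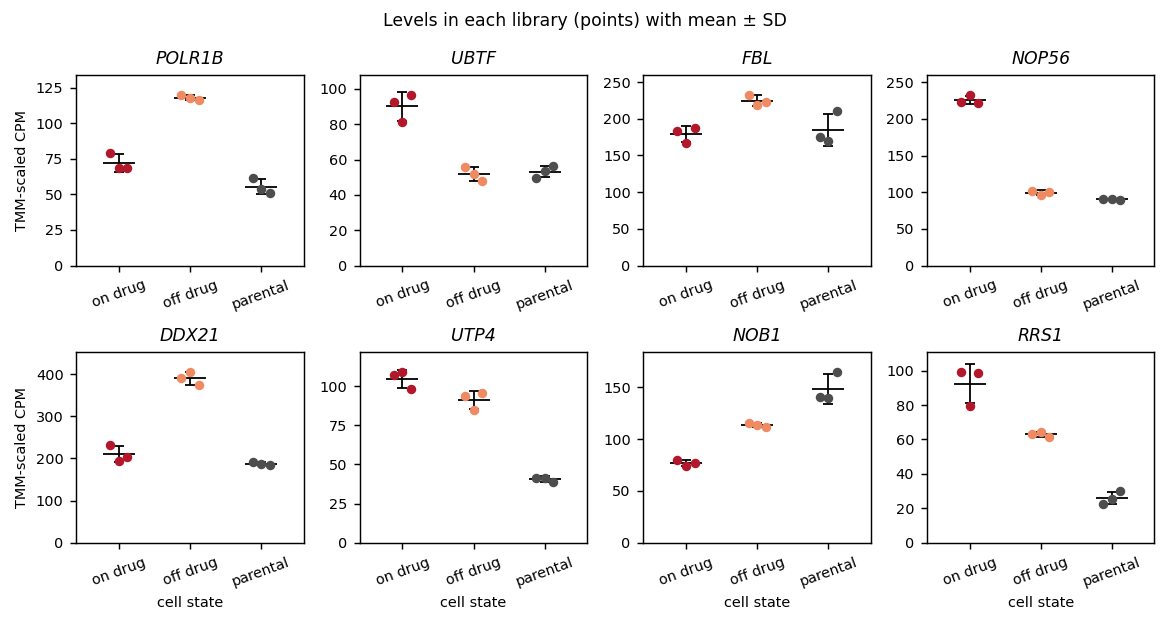
TMM-scaled CPM of 8 members in each library (points; black bars give mean ± SD over 3 libraries) on drug, off drug and in parental cells, on axes that start at 0. POLR1B, FBL and DDX21 are highest off drug, UBTF, NOP56 and RRS1 highest on drug, UTP4 is low in parental cells, and NOB1 is lowest on drug and highest in parental cells.

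Members were also compared for the length of the transcripts counted, taken as the ratio of estimated counts to TPM in each library. Implied length differed in 1 of 37 members on drug against off drug, against 3.96% of genes tested. That member was NOP56, whose implied length on drug was 0.877 times that off drug (limma's adjusted p = 0.00798). In TPM, which is scaled for length and has no TMM factor, NOP56 had 204 to 215 TPM on drug, 67.2 to 71.4 TPM off drug and 53.8 to 60.5 TPM in parental cells. Off drug against parental cells 0 of 37 differed (0.0638% of genes by limma), and on drug against parental cells 8 of 37 did (18.2% of genes), with 5 longer and 3 shorter. UBTF was among the shorter, at 0.881 times the parental length (limma's adjusted p = 0.0212).

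A further 131 ribosome biogenesis genes, listed by role from general knowledge of the pathway, all passed the filter. Their median change off drug against parental cells was 0.41, and 90 rose (68.7%) while 9 fell (6.87%), against 28.4% and 26.6% of all genes tested. The largest rises were in TCOF1, a nucleolar protein needed for ribosomal DNA transcription (139 ± 5.12 CPM off drug and 44.4 ± 4.38 CPM in parental cells), TAF1A, a subunit of the promoter factor SL1, FTSJ3, a methyltransferase of the large-subunit pathway, and RIOK1, a kinase of pre-40S particles. Their changes were 1.65 ± 0.09 for TCOF1, 1.37 ± 0.09 for TAF1A, 1.30 ± 0.09 for FTSJ3 and 1.26 ± 0.08 for RIOK1. The largest falls were in TAF1C, another SL1 subunit (−0.68 ± 0.09), the exosome cofactor C1D (−0.60 ± 0.14), RSL24D1 (−0.38 ± 0.13) and the U3 protein IMP3 (−0.31 ± 0.09).

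In the on-drug to off-drug comparison their median change was −0.18, and 21 rose (16%) while 63 fell (48.1%), against 31.4% and 31.2% of all genes tested. With library size as the only scaling the counts were 45 higher and 34 lower, and the median of all genes moved to 0.27. The shares of all genes given above are for TMM scaling only. UTP14A, a processome protein, rose by 0.95 ± 0.10 (49.0 ± 6.28 CPM on drug and 25.4 ± 1.93 CPM off drug), the exosome subunit EXOSC6 by 0.88 ± 0.09, the helicase DHX37 by 0.81 ± 0.10 and IMP3 by 0.80 ± 0.09. RSL24D1, an assembly factor of the large subunit, fell by 1.22 ± 0.13 (330 ± 67.3 CPM on drug and 770 ± 104 CPM off drug), TAF1A by 1.18 ± 0.09, AATF by 1.15 ± 0.10 and the exosome subunit EXOSC7 by 1.08 ± 0.10.

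The same 131 genes had a median change of 0.22 on drug against parental cells, where 67 rose (51.1%) and 22 fell (16.8%), against 33.4% and 32.9% of all genes tested. TCOF1 rose by 1.77 ± 0.09, FTSJ3 by 1.63 ± 0.09, UTP14A by 1.32 ± 0.10 and the polymerase subunit POLR1G by 1.29 ± 0.12. RSL24D1 fell by 1.60 ± 0.13, the kinase RIOK3 by 1.18 ± 0.08, EXOSC7 by 1.17 ± 0.10 and NOP10, a core protein of H/ACA snoRNPs, by 0.88 ± 0.10.

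MYC itself had 45.1, 43.1 and 45.0 CPM on drug, 89.7, 84.5 and 80.0 CPM off drug and 31.0, 33.4 and 34.3 CPM in parental cells. The 3 states did not overlap, with the off-drug libraries highest. Its changes were 1.37 off drug against parental cells, −0.93 on drug against off drug and 0.43 on drug against parental cells. Its part in the members' levels was not tested.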

How the data were processed

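Poly(A) RNA of 9 libraries was sequenced as 150-base pairs, per the labels' protocols. The submitters' processing notes name Salmon 0.14.1, the build GRCh38.p13, bcl2fastq 2.17 and FastQC 0.12.1 without a role for each. Gene annotation, strand setting and the summing of transcripts to genes are not given there or in the labels. The authors deposited estimated counts per gene, not scaled for depth, and TPM values, scaled for length and depth. The fits had been laid out for plain counts, so the estimated counts were rounded to whole numbers first.

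One edgeR 4.0.16 quasi-likelihood fit (R 4.3.3) of all 9 libraries had a mean per state, no covariate, TMM scaling and filterByExpr (minimum count 10, minimum total 15). SE is the size of the log2 fold change divided by the square root of F. Benjamini-Hochberg adjustment covered all 17307 genes tested. Implied transcript length (estimated count over TPM) was tested with limma 3.58.1 on the log2 scale. The steps were tested on simulated counts. Promoters are from RefSeq (GRCh38.p14) and gene spans from GENCODE 29. No 2 libraries agreed within sampling noise (lowest chi-square per degree of freedom 5.113), and none was merged.

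The members, roles, lists and the rule for named genes were chosen with earlier results of these data known. Values in every library were given, per role, for the member with the highest mean TPM, those with the largest change in each comparison, and those that ran against most of their role. Other pathway genes named are the 4 largest called rises and falls with a mean of at least 5 TPM. Alternatives were RLE and upper-quartile factors, library size only, no filter, a stricter filter, DESeq2 1.42.0, limma voom, log2(TPM + 1), log2(TPM + 0.1), only the groups compared, a replicate block and each library left out, and an offset for implied length was added after the data were seen.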

Additional observations from a re-analysis of the deposited data

How the results depend on the processing

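Of 2331 refitted member results under these alternatives, 2164 kept their side of the threshold, with the same direction where called. A further 105 lost a call, 52 gained one and 10 changed sign with a call on either side. Within the 2164, 65 were uncalled in both fits and changed sign. Of the 111 member results, 67 kept their side and direction throughout. Depth was ample, since every member had at least 336 counts in each library. With 3 libraries a state, calls near the threshold turned on single libraries. The cause of each change below was not tested, and the value after "against" is the one reported above. No share of all genes called is given for these alternatives, so the counts below have none beside them.

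Off drug against parental cells, members lower numbered 3 with upper-quartile factors, 2 without a filter or with only the groups compared, and 0 on log2(TPM + 1) and log2(TPM + 0.1), against 1. The members' median was 0.35 with upper-quartile factors, 0.53 on log2(TPM + 1) and 0.54 on log2(TPM + 0.1), against 0.44. Other pathway genes lower numbered 3 on both TPM scales, against 9.

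In the on-drug to off-drug comparison, members higher numbered 15 with library size only, against 9. Members lower numbered 10 with upper-quartile factors, 8 with library size only, 7 on log2(TPM + 1) and 5 on log2(TPM + 0.1), against 17. The members' median was −0.0275 with upper-quartile factors, and turned positive with library size only (0.10), on log2(TPM + 1) (0.0744) and on log2(TPM + 0.1) (0.0763), against −0.16. Other pathway genes higher numbered 32 with upper-quartile factors, 45 with library size only, 33 on log2(TPM + 1) and 32 on log2(TPM + 0.1), against 21, and lower 34 with library size only and on both TPM scales, against 63. The median of all genes, 0.02 above, was 0.15 with upper-quartile factors and 0.27 with library size only. It was 0.16 on log2(TPM + 1) and 0.18 on log2(TPM + 0.1). With library size only, DKC1 (0.19), NPM1 (0.0375), NOP2 (0.0370) and BYSL (0.0383) turned positive, as did BYSL on log2(TPM + 1) (0.0744) and log2(TPM + 0.1) (0.0763).

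On drug against parental cells, members lower numbered 2 on both TPM scales, against 4. The members' median was 0.64 with library size only, 0.71 on log2(TPM + 1) and 0.73 on log2(TPM + 0.1), against 0.42. Other pathway genes lower numbered 12 with library size only and 9 on both TPM scales, against 22. FBL turned positive on log2(TPM + 1) (0.32) and log2(TPM + 0.1) (0.32), as did NOP14 (0.29 and 0.30).

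With each library left out in turn, members higher and lower numbered 22 to 27 and 1 off drug against parental cells, 7 to 10 and 13 to 18 on drug against off drug, and 23 to 25 and 4 on drug against parental cells. Libraries of the same number did not pair (r from −0.18 to 0.23, 3 of 9 pairs over 0.1). With the replicate block, members higher and lower numbered 25 and 1 off drug against parental cells, 7 and 15 on drug against off drug, and 24 and 4 on drug against parental cells.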

Other observations

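Genes next to the members' pathway were described in the same fit. Of 19 genes of RNA polymerase III and its factors, which transcribe 5S ribosomal RNA and transfer RNA, 12 rose and 3 fell off drug against parental cells (28.4% and 26.6% of all genes tested), with a median of 0.27. On drug against off drug 5 rose and 5 fell (31.4% and 31.2% of all genes tested). Of 8 subunits of RNA polymerase II, 2 rose and 2 fell off drug against parental cells, with a median of 0.02.

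For a list of 16 snoRNA host genes, of which only SNHG32 is annotated as protein coding in GENCODE 29, the summed level was lowest on drug. The 16 summed to 3555 to 4444 TPM on drug, 5774 to 6439 TPM off drug and 6482 to 6809 TPM in parental cells. Much of each sum was GAS5, which averaged 899.5 TPM on drug, 2112 TPM off drug and 2112 TPM in parental cells. SNHG29 came next, with 801 TPM on drug, 1215 TPM off drug and 2017 TPM in parental cells. On drug against off drug 9 of 16 fell and 5 rose (31.2% and 31.4% of all genes tested), with a median of −0.59. On drug against parental cells 8 fell and 5 rose (32.9% and 33.4% of all genes tested).

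Among 10 genes of the MYC network tested, 3 rose and 6 fell on drug against off drug (31.4% and 31.2% of all genes tested). MAX, the partner of MYC, rose (0.75 ± 0.08, edgeR's adjusted p = 6.44e-07). MXD1, MXI1 and MNT, which compete with MYC for MAX, fell (−2.65 ± 0.10, −0.47 ± 0.08 and −1.18 ± 0.11). MXD3 and MXD4 of the same class rose (1.53 ± 0.11 and 1.24 ± 0.09). These genes were singled out after their values were seen.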
